A study of Mus musculus with 3 samples.

Results

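The genes described here are those of the mitochondrial respiratory chain and ATP synthase that are encoded in the nucleus, in mouse liver RNA set against Universal Mouse Reference RNA (UMRR), a reference mixture sold for arrays and made from cultured mouse cell lines. Members were chosen by symbol in the platform annotation: symbols that start with Nduf, with Sdha, Sdhb, Sdhc or Sdhd, with Uqcr, with Cox4 to Cox8 or with Atp5, and the symbols Cyc1 and Cycs. This gave 66 of the 7984 genes on the array that have a probe with 1 symbol, on 187 of 12336 such probes. The start Sdha also took in the assembly factors Sdhaf1 to Sdhaf4. Of the 66 genes, 53 encode subunits of complexes I to V, 1 is cytochrome c, 11 are assembly factors (7 Ndufaf and 4 Sdhaf genes) and 1, Cox7a2l, joins complexes into supercomplexes. The array held 19 subunits of complex I, 2 of complex II, 9 of complex III, 12 of complex IV and 11 of complex V.

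The series has 1 comparison, made on 3 arrays of 2 colours: purchased liver total RNA labelled with Cy5 against UMRR labelled with Cy3, with no dye swap. The labels name the same catalogue product for each RNA on every array, and give no strain, age or sex. Both RNAs went through 1 round of amplification to cRNA. Since the arrays repeat 1 pair of RNAs and nothing names separate animals, the p-values below reflect how far repeated arrays differ, which may be technical variation alone.

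The respiratory chain sits in the inner mitochondrial membrane. Complex I takes electrons from NADH and complex II takes them from succinate. Both pass them through coenzyme Q to complex III, and cytochrome c carries them on to complex IV, which reduces oxygen. Complexes I, III and IV pump protons, and ATP synthase, also called complex V, lets protons flow back and makes ATP. Assembly factors help to build the complexes and are not part of the finished enzymes. Liver is rich in mitochondria, and hepatocytes use respiration for gluconeogenesis, urea synthesis and fatty acid oxidation. A few subunits of the chain come in forms used mainly in heart and skeletal muscle or in testis.

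All values are log2 ratios of liver over UMRR, so a value of 1 means 2-fold higher in liver. The base and direction are not stated in the deposited table. Base 2 was assumed; natural logs would make each log2 ratio 1.44 times as large as printed. Positive values were taken as higher in liver from secretory genes of hepatocytes: the 4 of 6 on the array that were tested stood between 4.01 and 5.17. An exact 0 was read as no measured ratio, and it was listed for 23.5% to 32.2% of all probes and 16.0% to 23.5% of the members' probes on an array. In all, 5520 genes had a ratio on every array, and Pearson's r across them was 0.93 to 0.98 between arrays. Dye bias is part of every ratio, and fewer cells of a type cannot be told apart from less RNA per cell. By the test described below, 30.1% of all genes were higher in liver and 33.9% lower. Genes of pancreatic acinar cells were also high in the liver channel, with 9 of 10 tested genes higher and a median of 4.35. Their part in the values below was not tested. Erythroid genes were high as well, with 5 of 7 tested genes higher, none lower and a median of 4.39, from 0.22 for Epor to 4.94 for Hba-a1, and their part was not tested. Of 7 tested cell cycle genes, 6 were lower in liver, with a median of -2.51, and the part of cell growth in the pool was not tested either.

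Most members were higher in liver. Of the 66 genes, 59 had a ratio on all arrays and were tested. By limma's moderated test, adjusted over all genes with the Benjamini-Hochberg method, 46 of the 59 were higher in liver at an adjusted p of 0.05, against 30.1% of all 5520 genes, and 3 were lower, against 33.9%. The other 10 did not pass. The median of the tested members was 0.93 and that of the 5461 other genes -0.034. At least 2-fold on every array were 17 members, all on the liver side, where 9.46% of all genes stood. The subunit means were less spread than those of all genes. Of 49 tested subunits, 43 had a mean between 0.5 and 2, as had 17.9% of all genes. These limits were not fixed in advance. No member exceeded 2, but only 4.31% of all genes did, so few of 59 would at that share. The SD of the subunit means was 0.57 and that of all gene means 1.09.

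**Figure D1:**
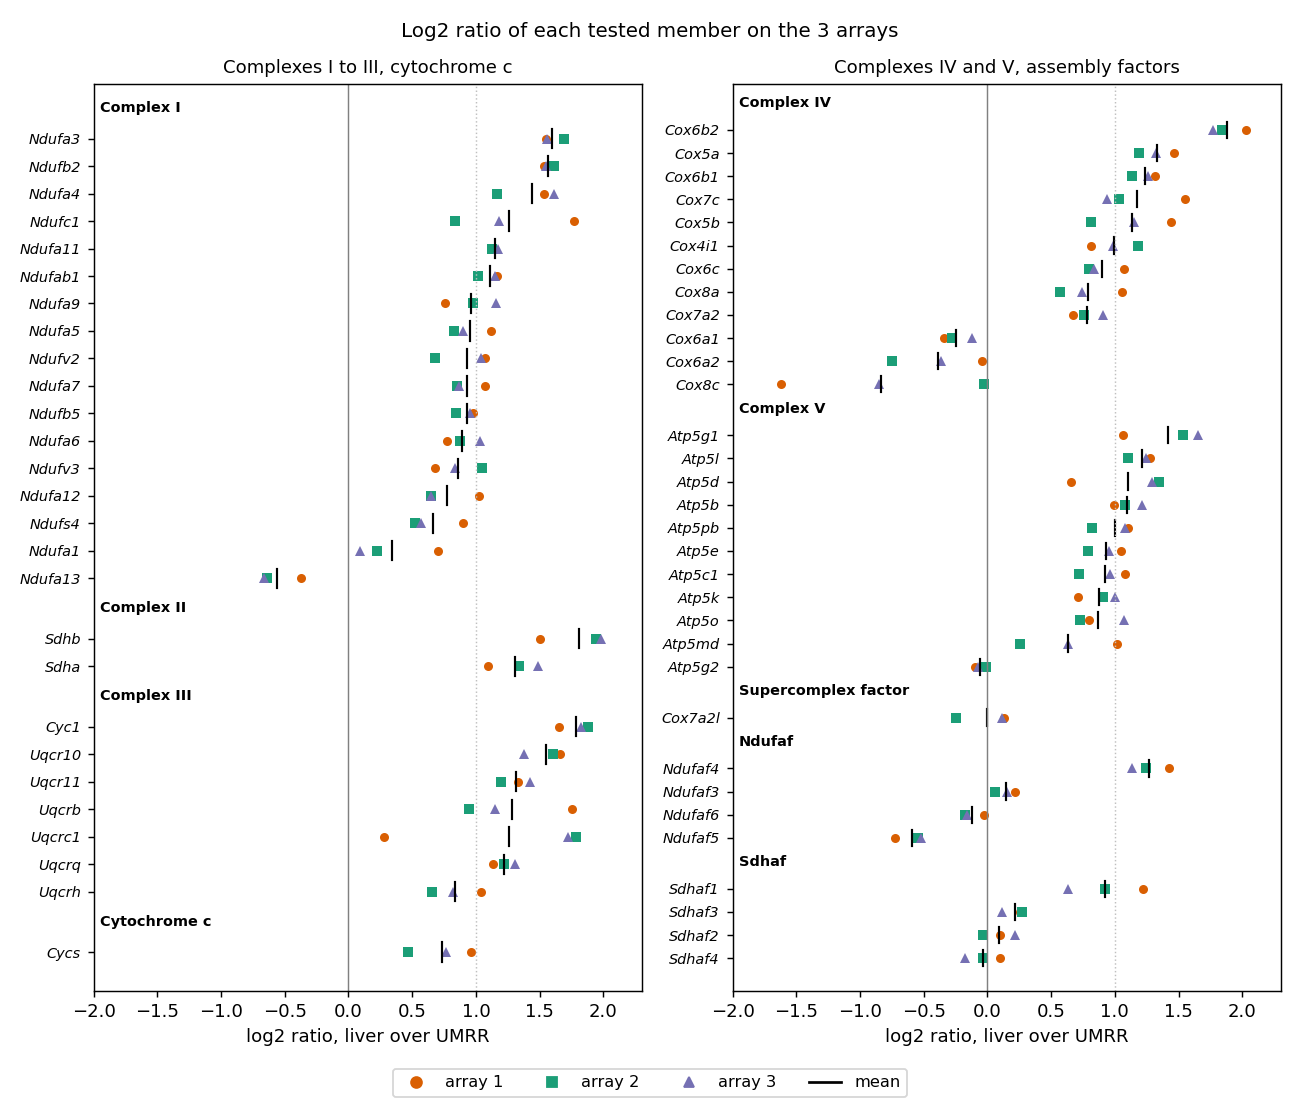
Log2 ratio of liver over UMRR (x axis) for each of the 59 tested members, by complex and then by mean; circles, squares and triangles are arrays 1, 2 and 3, the black bar is their mean, and the dotted line marks a 2-fold difference. Most subunits lie near 1, while Ndufa13, Cox6a1, Cox6a2, Cox8c, Atp5g2, Ndufaf5, Ndufaf6 and Sdhaf4 have a mean below 0.

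Promoters are shown for 4 members, Sdhb and Ndufa3 because they were the highest member found in all tissues and the highest complex I subunit, and Atp5g1 and Atp5g2 because both encode the same mature protein and their ratios differed. The windows are from RefSeq on GRCm38.p6 and run from 250 bases before to 50 after the start of the gene. Capitals mark exact matches, on either strand, to 4 motifs: GCGCATGC for nuclear respiratory factor 1 (NRF1), CCGGAAG for ETS factors such as GABP, AAGATGGC for YY1 and TGACGTCA for CREB.
Sdhb (chr4:140961021-140961320, plus strand): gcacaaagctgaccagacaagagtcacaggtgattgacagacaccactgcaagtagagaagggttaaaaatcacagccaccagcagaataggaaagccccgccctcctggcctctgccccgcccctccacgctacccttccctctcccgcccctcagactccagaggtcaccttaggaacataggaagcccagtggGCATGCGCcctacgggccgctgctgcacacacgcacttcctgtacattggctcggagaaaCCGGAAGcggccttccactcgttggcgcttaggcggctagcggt
Ndufa3 (chr7:3617123-3617422, plus strand): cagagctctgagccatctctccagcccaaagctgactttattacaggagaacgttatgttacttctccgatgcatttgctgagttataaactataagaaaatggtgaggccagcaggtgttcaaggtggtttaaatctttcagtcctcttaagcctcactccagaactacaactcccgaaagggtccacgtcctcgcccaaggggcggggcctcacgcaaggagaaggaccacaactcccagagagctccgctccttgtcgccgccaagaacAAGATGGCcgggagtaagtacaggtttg
Atp5g1 (chr11:96075582-96075881, minus strand): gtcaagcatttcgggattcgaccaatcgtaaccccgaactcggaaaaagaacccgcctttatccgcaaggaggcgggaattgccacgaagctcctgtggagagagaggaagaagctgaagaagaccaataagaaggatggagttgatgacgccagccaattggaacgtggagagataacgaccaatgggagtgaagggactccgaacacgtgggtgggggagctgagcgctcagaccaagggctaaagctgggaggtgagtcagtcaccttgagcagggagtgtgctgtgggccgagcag
Atp5g2 (chr15:102670998-102671297, minus strand): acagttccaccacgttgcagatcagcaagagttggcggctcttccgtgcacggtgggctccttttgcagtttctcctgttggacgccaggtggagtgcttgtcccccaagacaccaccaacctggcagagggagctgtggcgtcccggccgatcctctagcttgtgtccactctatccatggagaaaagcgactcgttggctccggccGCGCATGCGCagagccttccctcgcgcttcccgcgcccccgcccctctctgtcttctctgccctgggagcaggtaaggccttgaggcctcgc
Sdhb holds an NRF1 and an ETS match and Ndufa3 a YY1 match. Atp5g2 holds the NRF1 motif on both strands at once, in a palindrome where the matches overlap, and Atp5g1 holds none of the 4.

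A window was found for 57 of the 66 members. The NRF1 motif was in 13 of them (22.8%), against 3.05% of all 27025 genes with a window and 3.94% of the 17492 protein-coding ones. For the ETS motif the count was 14 members (24.6%), against 9.93% of all genes and 12.9% of coding genes. YY1 stood at 6 members (10.5%), against 3.19% and 3.57%, and the CREB motif at 4 members (7.02%), against 2.03% and 2.54%. At least 1 motif was present in 29 members (50.9%), against 16.4% and 20.5%. The members' windows were also richer in G and C, with a median of 59.3%, against 52.7% in all windows and 56.3% in those of coding genes. By array result, at least 1 motif was in 21 of 41 members that were higher in liver and in 5 of 10 that were lower or did not pass. A match is a string of letters, not a shown binding site.

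Among measured ratios, complexes II and III had the highest medians. The median over the tested subunits was 1.56 for complex II (2 genes), 1.28 for complex III (7 genes), 0.95 for complex IV (12 genes), 0.93 for complex I (17 genes) and 0.93 for complex V (11 genes). The median of complex III lay above that of complex I by 0.26, 0.37 and 0.35 on arrays 1, 2 and 3, and above that of complex V by 0.32, 0.40 and 0.30. Complex II lay above complex I by 0.23, 0.79 and 0.70, so the gap was smaller on array 1 than on the other arrays. The place of complex III rests on leaving out exact zeros: with each 0 kept as a ratio, its median was 0.84, against 0.85 for complex IV, 0.87 for complex V and 0.81 for complex I. With exact zeros left out, the median of complex IV lay under that of complex I on each array. Its median of gene means, given above, was slightly higher. Averaged over the arrays, the medians of complexes IV and V differed from that of complex I by -0.055 ± 0.050 and -0.014 ± 0.050 (SD, n = 3 arrays). These differences were not tested, since members are not replicates and the smallest two-sided p that 3 arrays allow in an exact sign-flip test is 0.25.

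**Figure D2:**
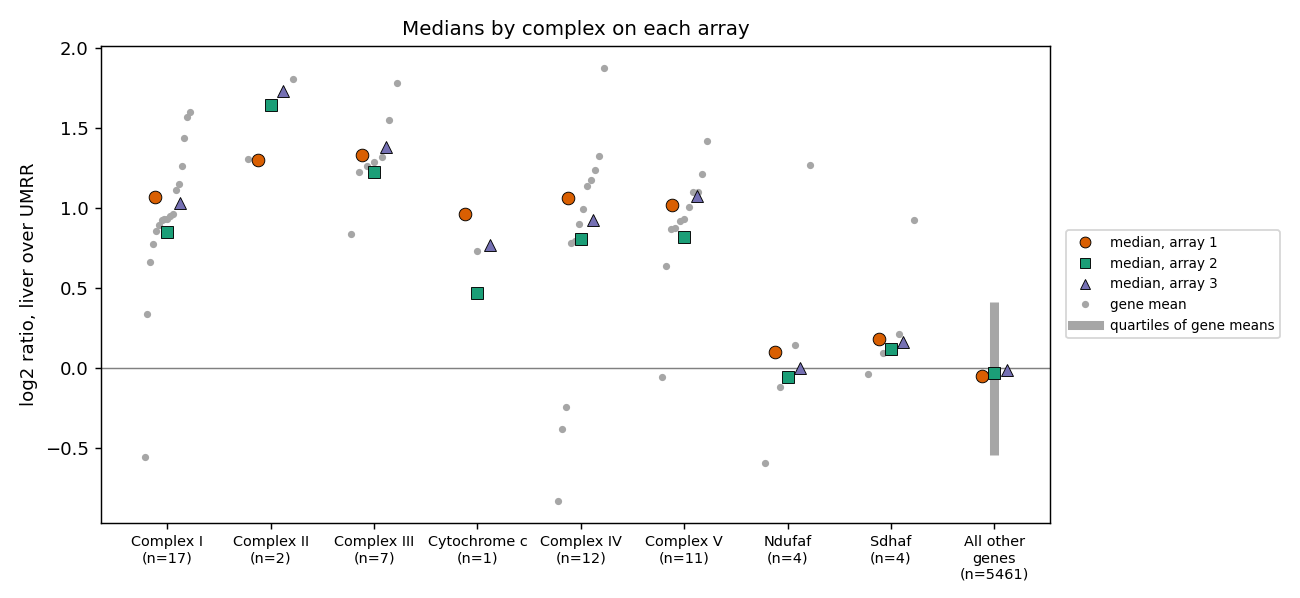
Median log2 ratio of liver over UMRR (y axis) of each complex or factor group on arrays 1 (circles), 2 (squares) and 3 (triangles), with the mean of each tested gene as a grey point and, for the 5461 other genes, a grey bar from the lower to the upper quartile. The medians of the 5 complexes are between 0.80 and 1.73 on each array, and those of the Ndufaf and Sdhaf factors are between -0.060 and 0.18.

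Complex II, succinate dehydrogenase, takes part in the citric acid cycle as well as in the chain. Sdhb, its iron-sulfur subunit, stood at 1.50, 1.94 and 1.99 on arrays 1, 2 and 3, a mean of 1.81 ± 0.27 (SD, n = 3) or 3.50-fold (adjusted p = 5.46e-05 in the limma fit). Sdha, the flavoprotein that oxidises succinate, stood at 1.09, 1.34 and 1.48, a mean of 1.31 ± 0.20 or 2.47-fold (adjusted p = 0.000121 in the limma fit). Array 1 was the lowest for both genes, and every array stood above a 2-fold difference. Sdha rested on 1 of its 4 probes, since the others had an exact 0 on at least 1 array. Those 3 probes were above 0 wherever a ratio was listed. A probe with ratios on arrays 1 and 3 had 0.85 and 0.83. The others had a ratio on array 2 alone, of 0.82 and 1.44.

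Every tested subunit of complex III was higher in liver, against 30.1% of all genes. Cyc1, the cytochrome subunit that hands electrons to cytochrome c, stood at 1.65, 1.88 and 1.82, a mean of 1.78 ± 0.12 (SD, n = 3) or 3.44-fold (adjusted p = 2.20e-05, limma). Uqcr10, a small subunit, stood at 1.66, 1.61 and 1.38, and Uqcr11, another, at 1.33, 1.19 and 1.42. These 3 genes were above a 2-fold difference on every array, as was Uqcrq, a ubiquinone-binding subunit, at 1.13, 1.22 and 1.31. Uqcrb, which also lies near the site of ubiquinone, had 1.75, 0.95 and 1.15, with array 1 the highest. Uqcrh, the acidic hinge subunit near cytochrome c, had 1.04, 0.65 and 0.82, and its mean of 0.84 ± 0.19 was the lowest of the complex. Adjusted p-values of the 7 genes ran up to 0.0101, that of Uqcrc1.

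Uqcrc1, a core subunit, had the largest SD between arrays of the tested members, while the range of Cox8c was wider. It stood at 0.28 on array 1, against 1.79 and 1.72 on arrays 2 and 3, with a mean of 1.26 ± 0.85 (SD, n = 3). Both of its probes showed this, at 0.067 and 0.49 on array 1 and between 1.71 and 1.83 on the other arrays. Without array 1 the value was 1.76. The other core subunit, Uqcrc2, had ratios of 1.41 and 1.22 on arrays 1 and 2 and an exact 0 on array 3. Uqcrfs1, the Rieske iron-sulfur protein, had 2.12 and 1.78 on arrays 1 and 3 and an exact 0 on array 2. Each rests on 1 probe, since its other probe was at exact 0 on all arrays, and neither entered the test over all 3 arrays. With ratios on at least 2 arrays allowed, both were higher in liver, at 1.32 for Uqcrc2 (adjusted p = 0.00104, limma) and 1.95 for Uqcrfs1 (adjusted p = 0.000433, limma).

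Cycs, the somatic cytochrome c, which also acts in apoptosis when released from mitochondria, stood at 0.96, 0.47 and 0.77. Its mean of 0.73 ± 0.25 (SD, n = 3) or 1.66-fold (adjusted p = 0.00233, limma) lay under the medians of all 5 complexes. On each array Cycs was above 0, with array 2 the lowest, and its 2 probes had means of 0.66 and 0.80.

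Of the 17 tested complex I subunits, 15 were higher in liver, 1 was lower and 1 did not pass. Among all genes, 30.1% were higher and 33.9% lower. Ndufa3, an accessory subunit, stood highest at 1.55, 1.69 and 1.56, a mean of 1.60 ± 0.080 (SD, n = 3) or 3.03-fold. Ndufb2, an accessory subunit of the membrane arm, followed at 1.54, 1.61 and 1.55. Ndufa4 had 1.53, 1.17 and 1.62; it is counted here by its symbol, although its protein is now placed in complex IV. Ndufc1, another small accessory subunit, had 1.77, 0.83 and 1.18, so that array 1 lay clearly above the others. The limma fit gave adjusted p-values between 2.62e-05 for Ndufb2 and 0.00120 for Ndufc1. The 6 subunits not named elsewhere, Ndufa11, Ndufab1, Ndufa9, Ndufb5, Ndufa6 and Ndufv3, had means from 0.86 to 1.15 and were all higher in liver.

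The middle of complex I was held by Ndufv2, an iron-sulfur core subunit of the NADH-binding module, with 1.07, 0.68 and 1.04, and Ndufa7, an accessory subunit, with 1.07, 0.85 and 0.87. Ndufa12 and Ndufs4, accessory subunits that join late in assembly, were lower in the order at 0.77 ± 0.22 and 0.66 ± 0.21 (SD, n = 3), and both were higher in liver in the limma fit. Ndufa12 had 1.03, 0.65 and 0.65 on the 3 arrays, and Ndufs4 had 0.90, 0.52 and 0.57. Array 1 was the highest for both. Ndufa1, an accessory subunit encoded on the X chromosome, had 0.70, 0.22 and 0.093 and did not pass (adjusted p = 0.0730, limma). Without array 1 its value was 0.16.

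Ndufa13 was the only tested complex I subunit below 0. It is also known as GRIM-19, a protein linked to cell death as well as to complex I. Its 1 probe stood at -0.37, -0.64 and -0.66, a mean of -0.56 ± 0.16 (SD, n = 3) or 1.47-fold lower in liver (adjusted p = 0.00382, limma). All 3 arrays were below 0, and array 1 was the nearest to it. Ndufa8 and Ndufv1, the subunit that binds NADH, were at exact 0 on all arrays.

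Ndufa5, an accessory subunit, had 33 probes, of which 28 had a ratio on all arrays. Their means ran from 0.80 to 1.16 with a median of 0.95 and an SD of 0.10 between probes. The gene stood at 1.12, 0.83 and 0.90 on arrays 1, 2 and 3, and array 1 was the highest for 27 of the 28 probes. Atp5l, subunit g of ATP synthase, had 28 probes, of which 22 had a ratio on all arrays, with means from 0.74 to 1.74 and a median of 1.21. The SD between its probes was 0.19. Only 6 genes of the whole annotation had at least 20 probes. The assignment of these probes to Ndufa5 and Atp5l is that of the platform annotation and could not be checked without probe sequences. The probes share 1 pair of RNAs and are not independent of each other.

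**Figure D3:**
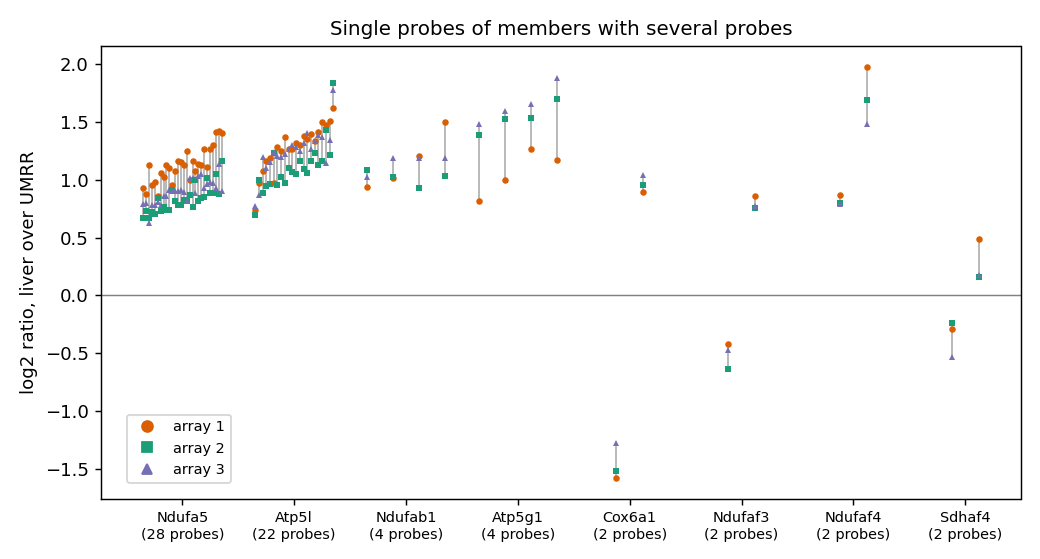
Log2 ratio of liver over UMRR (y axis) of single probes with a ratio on all arrays, for 8 members (x axis); circles, squares and triangles are arrays 1, 2 and 3, joined by a grey line for each probe. The 28 probes of Ndufa5 and the 22 of Atp5l are all above 0, while Cox6a1, Ndufaf3 and Sdhaf4 each have 1 probe above and 1 below 0.

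Of the 12 complex IV subunits, all tested, 9 were higher in liver, 1 was lower and 2 did not pass. Among all genes, 30.1% were higher and 33.9% lower. Cox5a, a nuclear subunit used in all tissues, stood at 1.47, 1.19 and 1.33, a mean of 1.33 ± 0.14 (SD, n = 3) or 2.51-fold (adjusted p = 7.88e-05, limma). Cox6b1, which faces the intermembrane space, had 1.31, 1.14 and 1.26, and Cox7c, a small membrane subunit, had 1.55, 1.03 and 0.94. Array 1 was the highest for these 3 genes. In the middle, Cox4i1, the common form of the largest nuclear subunit, had 0.81, 1.18 and 0.98, and Cox6c had 1.07, 0.80 and 0.84. Cox7a2, the form of its subunit used in liver, was the lowest of those that passed on the liver side, at 0.67, 0.76 and 0.91. Cox5b, another nuclear subunit, averaged 1.13 and was higher in liver.

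The forms of complex IV known from other tissues went apart. Cox6b2, the testis form, had the highest mean of all members, at 2.03, 1.84 and 1.77 on the arrays, or 1.88 ± 0.13 (SD, n = 3) and 3.68-fold (adjusted p = 1.93e-05, limma). It rests on 1 probe and lay above Cox6b1 by 0.71, 0.70 and 0.51. The difference of 0.64 ± 0.12 (SD, n = 3) gave a p of 0.25 in an exact sign-flip test over arrays, two-sided, the smallest that 3 arrays allow. Cox8c, the testis form of Cox8a, had -1.62, -0.026 and -0.85, a mean of -0.83 ± 0.80, and was lower in liver (adjusted p = 0.0383, limma). Its arrays were far apart: the value was -0.44 without array 1 and -1.24 without array 2, and the call was lost without array 3 (adjusted p = 0.0549, limma). Cox8a, the common form, stood at 0.79 ± 0.24 and was higher in liver (adjusted p = 0.00160, limma).

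Cox6a2, the form of heart and skeletal muscle, had -0.042, -0.75 and -0.36 and did not pass (adjusted p = 0.0601, limma), but passed without array 1, at -0.55 (adjusted p = 0.00202, limma). The 4 tested genes of striated muscle ran from -1.42 for Actc1 to 2.54 for Tnnt2. Of these genes, 3 were higher in liver and 1 was lower, against 30.1% and 33.9% of all genes. Their part in the ratio of Cox6a2 was not tested. Cox6a1, the common form, had probes that went opposite ways. A probe from 1 cDNA stood at 0.90, 0.96 and 1.04, near the other subunits. A probe from another cDNA stood at -1.58, -1.51 and -1.27. The other 3 probes from that cDNA had a ratio only on array 2, where the 4 lay between -1.51 and -1.28. Each probe with a ratio on all arrays passed the limma test on probes, with adjusted p-values of 0.000230 and 6.49e-05, in opposite directions. Their average of -0.25 ± 0.12 therefore stands for neither, and the direction of Cox6a1 is uncertain.

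ATP synthase was higher in liver for 10 of 11 tested subunits, against 30.1% of all genes, and 1 did not pass. Subunits of the catalytic head and central stalk had means from 0.92 to 1.10. Atp5b, the catalytic beta subunit, had 1.00, 1.08 and 1.21 on the arrays. Atp5d, the delta subunit of the rotor, had 0.66, 1.35 and 1.30, with array 1 far below the others. Atp5c1, the gamma subunit of the rotor, had 1.08, 0.72 and 0.96, and Atp5e, the epsilon subunit, had 1.05, 0.79 and 0.95. Array 2 was the lowest for these last genes. Atp5l stood at 1.28, 1.11 and 1.24, and Atp5pb, of the outer stalk, averaged 1.00; both were higher in liver. Atp5o, which joins the head to the outer stalk, had 0.80, 0.73 and 1.07, and Atp5k, subunit e, had 0.71, 0.90 and 1.00. Atp5md, a small protein that helps hold pairs of ATP synthases together, was the lowest of those that passed, at 1.02, 0.25 and 0.63 (adjusted p = 0.0118, limma).

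The 2 tested genes of the c ring differed. Atp5g1 and Atp5g2 differ in the leader peptide that is cut off on import and give the same mature c subunit. Atp5g1 was the highest ATP synthase gene, with 1.06, 1.54 and 1.65, a mean of 1.42 ± 0.31 (SD, n = 3) or 2.67-fold (adjusted p = 0.000214, limma). Atp5g2 stood at -0.093, -0.013 and -0.075, a mean of -0.061 ± 0.042, and did not pass (adjusted p = 0.583, limma). The arrays did not overlap, and the difference was 1.16, 1.55 and 1.73 on arrays 1, 2 and 3, or 1.48 ± 0.29 (SD, n = 3). The exact two-sided sign-flip test gave p = 0.25, the smallest that 3 arrays allow, so it cannot decide on the difference. All 4 probes of Atp5g1 with a ratio on all arrays had means from 1.23 to 1.58, and both such probes of Atp5g2 lay between -0.089 and -0.033. No probe of Atp5g2 with a ratio on all arrays reached the lowest value of Atp5g1.

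The Ndufaf and Sdhaf assembly factors had a median near 0, while a list of other assembly factors, described below, had a median of 0.51. Of the 8 tested Ndufaf and Sdhaf genes, 2 were higher in liver, 1 was lower and 5 did not pass, while 43 of 49 tested subunits were higher, 2 lower and 4 did not pass. The factors' count is near the 30.1% of all genes that were higher, so it is no result about the factors. The medians were 0.12 for the factors and 0.99 for the subunits, and the difference was -0.91, -0.89 and -0.94 on arrays 1, 2 and 3. Without Ndufaf3 and Sdhaf4, whose probes went opposite ways, the median of the 3 remaining Ndufaf genes was -0.12 and that of the 3 Sdhaf genes 0.21. The count is small, and no test of the difference between these groups was made.

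Among the Ndufaf genes, which help to build complex I, Ndufaf4 was higher in liver at 1.42, 1.24 and 1.14, a mean of 1.27 ± 0.14 (SD, n = 3; adjusted p = 9.62e-05, limma). Both of its probes with a ratio on all arrays were above 0, at 1.71 and 0.82. Ndufaf3, its partner in an early step, had 1 probe at 0.86, 0.75 and 0.78 and another at -0.42, -0.64 and -0.47, and both passed the limma test on probes. Its average of 0.14 did not pass and stands for neither probe. Ndufaf5, a methyltransferase-like enzyme that modifies a core subunit, was lower in liver at -0.72, -0.54 and -0.52, a mean of -0.59 ± 0.11 (adjusted p = 0.00212, limma). Ndufaf6, which acts early, had -0.024, -0.18 and -0.16 and did not pass. Ndufaf2 and Ndufaf7 had a ratio on array 1 alone, of 0.26 and -0.021, and Ndufaf8 was at exact 0 on all arrays.

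Sdhaf1, which helps to place the iron-sulfur clusters of Sdhb, was the Sdhaf gene that passed, with 1.22, 0.92 and 0.63, a mean of 0.92 ± 0.30 (SD, n = 3; adjusted p = 0.00123, limma). Sdhaf3, which acts with it, had 0.26, 0.27 and 0.11, and Sdhaf2, which attaches the flavin to Sdha, had 0.096, -0.032 and 0.21. Neither passed, and both lay far under Sdha and Sdhb. Sdhaf4, a factor for Sdha, had 0.099, -0.036 and -0.17 and did not pass, with 1 probe at a mean of -0.35 and another at 0.28. Cox7a2l, which joins complexes III and IV, had 0.13, -0.25 and 0.12 and did not pass (adjusted p = 0.998, limma).

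Factors outside the rule on symbols were more often higher than lower in liver. Of 25 tested genes on a list of other assembly and maintenance factors, 14 were higher in liver, 4 were lower and 7 did not pass, where 30.1% of all genes were higher and 33.9% lower. Their median was 0.51. The highest were Cox19, a copper-related factor for complex IV, at 1.66 ± 0.15 (SD, n = 3), and Ecsit, a factor for complex I, at 1.60 ± 0.19. Higd1a, a membrane protein induced by hypoxia, was the lowest at -0.90 ± 0.024, followed by Ttc19, a factor for complex III, at -0.79 ± 0.15.

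Of genes that feed electrons to coenzyme Q or help to make it, 5 of 6 tested were higher in liver, against 30.1% of all genes, with a median of 0.88. Etfb, a subunit of the flavoprotein that collects electrons from fatty acid oxidation, stood at 2.44, 2.77 and 2.98, above every member, and Coq9, needed to make coenzyme Q, at 1.39 ± 0.51 (SD, n = 3). The lowest were Coq5 at 0.30 ± 0.30, which did not pass, and Coq10b at 0.60 ± 0.092. Among carriers and related proteins the median was 1.06, and 5 of 8 tested genes were higher, 1 lower and 2 past neither limit. Slc25a1, the citrate carrier, stood at 2.24 ± 0.12 and Ckmt2, the mitochondrial creatine kinase of striated muscle, at 1.95 ± 0.50. Vdac2, a pore of the outer membrane, was lower at -0.45 ± 0.27, and Ckmt1 stood at 0.19 ± 0.14 and did not pass.

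Regulators of mitochondrial gene expression were split, with a median of 0.16: 2 of 5 tested were higher, 2 were lower and 1 did not pass. Mterf3, a regulator of mitochondrial transcription, and Esrra, a nuclear receptor, stood at 0.52 ± 0.27 and 0.49 ± 0.10 (SD, n = 3). Ssbp1, which binds mitochondrial DNA, stood at -0.83 ± 0.24, and Nrf1, the factor whose motif was searched above, at -0.36 ± 0.16 (adjusted p = 0.0218, limma). The vacuolar proton pump, a relative of ATP synthase that works in lysosomes, had a median of -0.15, and of its 7 tested genes 2 were higher, 3 were lower and 2 did not pass. Both lists are small, and their counts are near the 30.1% of all genes that were higher and the 33.9% that were lower. Its highest genes were Atp6v0a2 at 0.31 ± 0.063 and Atp6v1f at 0.26 ± 0.091, and its lowest Atp6v1c1 at -0.75 ± 0.21 and Atp6v1g1 at -0.73 ± 0.083.

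Array 1 differed from the other arrays in a way that depended on the gene. Of the 59 tested members, 49 were within 0.5 of the mean of arrays 2 and 3, 6 were at least 0.5 above it on array 1 and 4 at least 0.5 below. The largest gaps were those of Uqcrc1 (-1.48), Cox8c (-1.18), Ndufc1 (0.76), Uqcrb (0.70) and Atp5d (-0.66). Among 26 members with several probes, all probes were above on array 1 for 13, all below for 7, and on both sides for 6. All 4 probes of Atp5g1 were below, for example, and all 3 of Uqcrb above. Most of these members had few probes, which can fall on the same side by chance. The share over all genes was not worked out. The median absolute gap was 0.22 for members and 0.24 for all genes, so in size alone the members were much like other genes. With its sign, the median gap was 0.11 for members and 0.011 for all genes. Array 1 was the highest for 33 of 59 members and 2385 of 5520 genes. It was the lowest for 20 members and 2242 genes. How many of all genes were past a gap of 0.5 was not counted. What separates array 1 was not tested. Without it, the members' count stayed at 46 higher in liver.

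**Figure D4:**
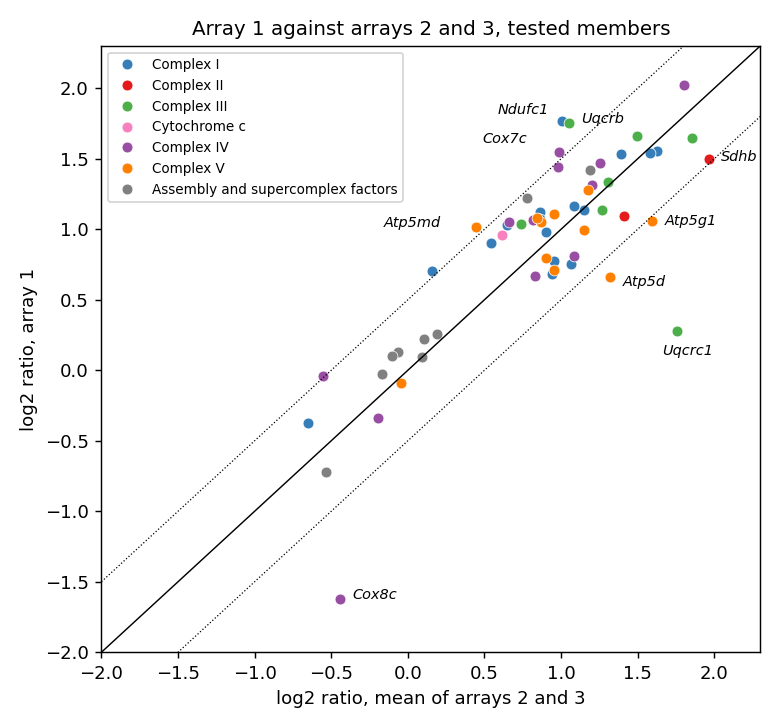
Log2 ratio of liver over UMRR on array 1 (y axis) against the mean of arrays 2 and 3 (x axis) for the 59 tested members, coloured by complex; the solid line marks equal values and the dotted lines a gap of 0.5. Uqcrc1 (0.28 on array 1) and Cox8c (-1.62) lie farthest below the line, and Ndufc1 and Uqcrb lie farthest above it.

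On single probes, 139 of the members' 187 had a ratio on all arrays, 23 on 1 or 2 arrays and 25 on none. The limma fit on probes called 124 of the 139 higher in liver, against 31.4% of all 9910 probes tested, and 6 lower. How many of all probes were lower was not counted. The 139 include 28 probes of Ndufa5 and 22 of Atp5l, all higher, so these genes weigh heavily in the probe count. Of the 59 tested members, 33 rested on 1 probe. Among the other 26, the probe means lay within 0.5 of each other for 21 and farther apart for Cox6a1, Ndufaf3, Atp5l, Ndufaf4 and Sdhaf4. Many genes of the chain have processed pseudogenes of near-identical sequence, so a probe can take up RNA of copies, and single values are uncertain to that extent.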

How the data were processed

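Liver and UMRR RNA were compared on 3 arrays of 2 colours. The authors deposited a processed value for each probe on each array, taken here to be a log2 ratio of the dyes. Base, direction, normalization and background correction: not given in the sources used here. Dyes are those of the labels. Exact zeros were read as no measured ratio, and without scanner signals dim probes could not be filtered. Of 16273 probes, 12336 had 1 gene symbol in the platform annotation and 61 several. Probes of 1 symbol with a ratio on all 3 arrays were averaged per array, giving 5520 genes. The mean ratio of each gene was tested against 0, two-sided, by a linear model with moderated variance (limma 3.58.1, lmFit and eBayes, under R 4.3.3). P-values were adjusted over all genes by the Benjamini-Hochberg method, with 0.05 as the limit. A second fit of this form used the 9910 probes. The fit was tested on simulated data. Tables were made with pandas 2.3.3.

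Every member was accounted for. Values by array were given for complexes II and III, cytochrome c and the factors, for the 4 highest, 2 middle and 4 lowest subunits of complexes I, IV and V, for members that were lower or did not pass, and where probes differed by at least 0.5; of each list of other genes, the 2 highest and 2 lowest. Cox8a, Actc1 and Tnnt2 are named outside this rule. Members and lists were chosen with earlier results of these data known, and the motifs after the values were seen. Promoters came from RefSeq (GRCm38.p6). The alternatives were centring, scaling or quantile normalization of the arrays, leaving out each array, ratios on at least 2 arrays, exact zeros kept, the median probe, other treatments of the variance, a threshold of 0.01, leaving out the most variable probes (SD in the top 5 percent) and natural logs. Subtracting medians of blocks of 1000 probe numbers and leaving out members with opposed probes were added after seeing the data.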

Additional observations from a re-analysis of the deposited data

How the results depend on the processing

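Each ratio compares both RNAs on 1 array, so the pairing of the RNAs is within the array. The 3 arrays form 1 group, with no further pairing to use. Centring, scaling, quantile normalization, the median probe, and eBayes with trend and robust set changed no member's call. The count of members higher in liver stayed at 46 without each array, and their median was 0.93 to 0.97; the count of lower members ran from 2 to 4. The median of complex III was 1.26 to 1.38 without an array, and that of the Ndufaf genes -0.031 to 0.048, on both sides of 0; it was -0.015 with block medians subtracted and -0.12 with opposed probes left out, where the Sdhaf median was 0.21. If each exact 0 was taken as a measured ratio, all 66 members and 7984 genes entered the fit. Of the 59 members of the main fit, 10 lost their call. The members' median was 0.78 and 9 were at least 2-fold higher on every array. Complex II then had 1 gene past the test and a median of 1.23, complex III 4 and 0.84, under complex IV at 0.85 and complex V at 0.87, and the Sdhaf median was 0.10; over all genes 1229 were lower. Without moderation of the variance 14 members lost their call, 1 member was lower and 0 Sdhaf genes were higher, against 1 with limma, and 1033 genes were higher and 1054 lower of all, against 1663 and 1872. Read as natural logs, 34 members were at least 2-fold higher on every array, against 17. At a threshold of 0.01, Uqcrc1, Cox8c and Atp5md lost their calls, and Cox8c also did with ratios on at least 2 arrays, where 61 members were tested and complex III had 9 of 9 past the test. With the most variable probes left out, 57 members and 5303 genes were tested, and Ndufa1 and Cox6a2 passed. Complex III then had 6 genes higher in liver, against 7, because a gene left the test. No member still tested lost its call. Cox6a2 also passed with block medians subtracted. Where no construction explains a change, the cause was not tested. Signal over background is unknown here, and precision is limited by the 3 arrays.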
